A study of Mus musculus with 24 samples.

Results

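Colorectal tumors of mice labelled KO-8-hetero (3 libraries) were compared with tumors labelled WT-young (4 libraries), 7 of the 24 RNA-seq libraries of the study. They were chosen by their titles, in which KO libraries have a leading number (1 or 8) with no explanation in the labels. All animals, controls included, carry the treatment label AOM/DSS, that is azoxymethane, which damages DNA, followed by dextran sulfate sodium, which injures the colon lining, a pair of agents used to raise colon tumors. The KO-8-hetero libraries carry the genotype label c-MAF_KO and, in the title, a word for heterozygous, and the WT-young libraries carry the genotype label WT and a word for young. The labels give no age in weeks, no strain, no description of the altered allele, no Cre or promoter, and no number of animals, and the KO titles hold no age word. Normal colon with the same labels was represented by 2 KO-8-hetero and 2 WT-young libraries, and the 6 other KO tumors were 3 KO-1-hetero and 3 KO-8-homo libraries. The labels do not say that the libraries of a group came from separate animals, so p-values below measure only the spread between these samples, which may be partly technical.

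Levels are given in FPKM, fragments scaled to transcript length and to the mapped fragments of the library, and differences as log2(FPKM + 1), where changes of weakly expressed genes appear smaller than they are. Of 24346 gene symbols, 12935 had at least 1 FPKM in at least 3 of the 7 tumors and were tested. Relative depth, estimated from genes of very low level, ranged from 0.790 to 1.62 among the 7 tumors and was highest in KO-8-hetero tumor 1, and 12332 to 13290 genes reached 1 FPKM. Fragment totals are not given in FPKM tables, so no counting interval was computed.

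c-MAF is a basic leucine zipper transcription factor that binds DNA at extended elements around a TGCTGA core and is known for its roles in T cells, macrophages and plasma cells. Tumors of the AOM/DSS model usually arise through activation of beta-catenin, which together with TCF factors switches on a set of target genes, several of which (Axin2, Nkd1, Notum, Rnf43, Znrf3) encode feedback inhibitors of the same Wnt pathway. The normal colon lining holds absorptive colonocytes, mucus-making goblet cells and hormone-making enteroendocrine cells, and it lies close to the squamous epithelium of the anal canal and to a coat of smooth muscle.

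In all 3 KO-8-hetero tumors few genes differed strongly from the WT-young tumors in the same direction, though pairs of tumors shared more. None of the 12935 genes separated the 3 from the WT-young tumors past the threshold (limma, Benjamini-Hochberg adjusted p below 0.05), 0% of the genes tested. The 3 differed among themselves in the gene groups that were high or low. Tumor 1 had the highest level of Wnt feedback genes and of alpha-defensins among the 7 tumors, with low levels of most colonocyte genes. Tumor 2 had very high levels of squamous keratins, of skeletal and smooth muscle genes and of neutrophil attractants, with few Wnt target transcripts. Tumor 3 had goblet genes (5 of 10) and some colonocyte genes (4 of 11) above the WT-young tumors, with very low levels of the posterior Hoxd genes, and it resembled a tumor of another KO label. These descriptions of single tumors carry no test, since each is 1 library.

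Expression distance between 2 tumors was measured as the root mean square of their differences over all tested genes. It was 0.717 to 0.815 between KO-8-hetero tumors (mean 0.758 over 3 pairs) and 0.312 to 0.610 between WT-young tumors (mean 0.430 over 6 pairs). Between the groups it was 0.403 to 0.860 (mean 0.604 over 12 pairs), so that the KO-8-hetero tumors lay farther from each other, on average, than from the WT-young tumors. Tumor 1 lay nearest to WT-young tumor 1 (0.403) and tumor 2 to WT-young tumor 2 (0.611). Tumor 3 lay nearest to a tumor of another KO label, KO-1-hetero tumor 3 (0.380), with which it shared several of the traits described below. The median SD of a gene was 0.261 within KO-8-hetero and 0.166 within WT-young tumors, and 739 genes (5.71%) against 135 genes (1.04%) had an SD above 1.

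**Figure D1:**
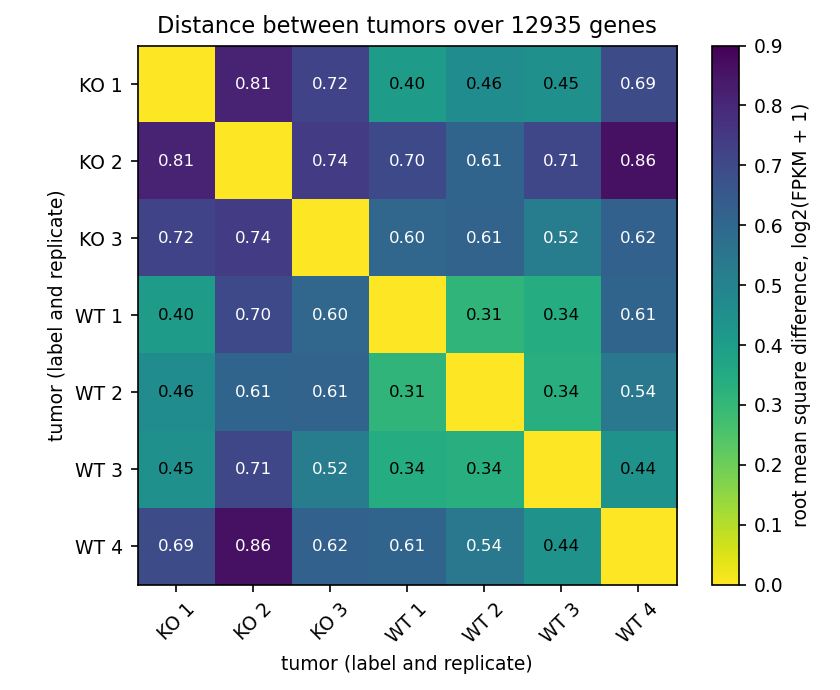
Distances between the 7 tumors as the root mean square difference of log2(FPKM + 1) over 12935 genes, with a darker cell for a larger distance. KO 1 to 3 are KO-8-hetero and WT 1 to 4 WT-young tumors, and the 3 distances among KO tumors (0.717 to 0.815) exceed all 6 among WT tumors (at most 0.610).

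To describe the tumors singly, a gene was called in a tumor when its log2 value lay at least 1 from the WT-young mean and outside the WT-young range. Tumor 1 had 115 genes called higher (0.889% of those tested) and 280 lower (2.16%). Tumor 2 had 686 higher (5.3%) and 463 lower (3.58%), and tumor 3 had 308 higher (2.38%) and 354 lower (2.74%). Few were shared by all 3 tumors, with 3 genes called higher (0.0232%) and 18 lower (0.139%). More of the 12935 genes tested were shared by pairs, with 70 higher and 151 lower in both tumors 2 and 3. Tumors 1 and 2 shared 11 higher and 72 lower, and tumors 1 and 3 shared 10 higher and 55 lower. These pair counts include the genes shared by all 3. Calls also went in opposite directions, with 37 genes higher in tumor 1 and lower in tumor 2, and 37 the other way round. For tumors 1 and 3 these counts were 32 and 37, and for tumors 2 and 3 they were 35 and 16. All 3 tumors were called against the same 4 WT-young tumors, and the counts that unrelated tumors would give were not computed. The WT-young tumors were not uniform either. Measured against the 3 others, WT-young tumors 1 to 4 had 291, 120, 51 and 741 genes called, so that the count of WT-young tumor 4 lay among those of KO-8-hetero tumor 3. Against sets of 3 WT-young tumors, KO-8-hetero tumor 1 had 296 to 540 genes called, tumor 2 had 1044 to 1245 and tumor 3 had 635 to 762.

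**Figure D2:**
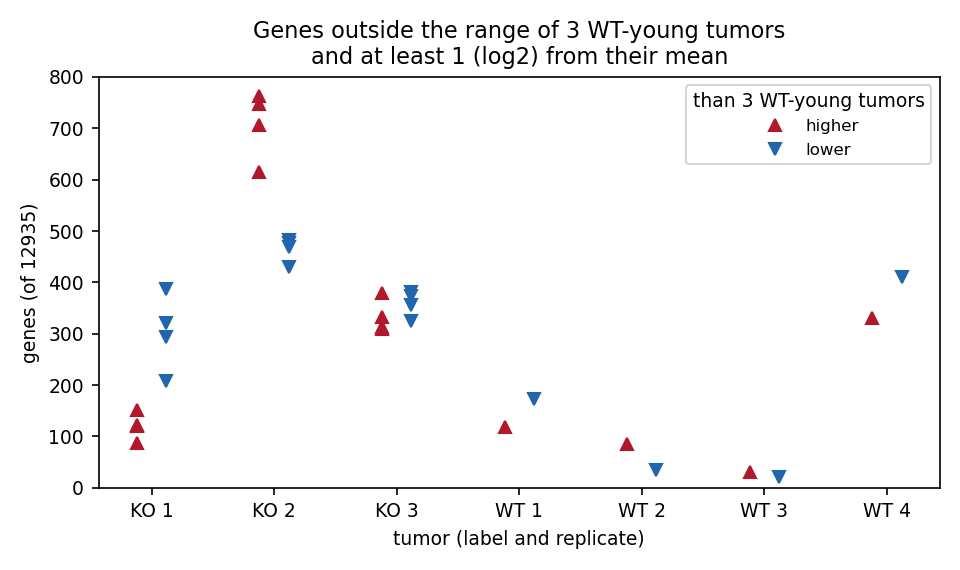
Number of genes outside the range of 3 WT-young tumors and at least 1 on the log2 scale from their mean, for each KO-8-hetero tumor against the 4 possible sets of 3 (4 points per direction) and for each WT-young tumor against the 3 others (1 point). KO 2 has the most genes in both directions, and WT 4, with 330 higher and 411 lower, lies among the points of KO 3 for higher genes and above them for lower genes.

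Maf, which encodes c-MAF (chromosome 8, 115703253 to 115706894, GRCm38), measured 5.21, 4.46 and 2.62 FPKM in KO-8-hetero tumors 1, 2 and 3. It measured 2.26, 1.92, 1.903 and 1.63 FPKM in WT-young tumors 1 to 4, so every KO-8-hetero tumor exceeded every WT-young tumor. The means were 4.097 ± 1.33 (SD, n = 3) and 1.93 ± 0.256 FPKM (SD, n = 4). The log2 difference was 0.77 (SE 0.201) and its adjusted p was 0.808 (limma). A two-sided exact permutation test over 35 splits gave 0.0286, the smallest p it can reach, and 0.129 after adjustment over 6 such tests. The label is therefore not accompanied by less Maf RNA in these tumors, but FPKM summed over a gene cannot separate RNA made from an intact and from a changed copy. The term KO is used here for what the titles say. Of 7 family members 5 were tested, and the only call was Maf itself, higher in tumor 1. Mafg, a small MAF protein, was highest in tumor 1, with 34.99, 12.1 and 11.9 FPKM against 19.8, 16.05, 18.9 and 15.6 FPKM in WT-young tumors.

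In tumor 3 the transcripts tied to sex set it apart from the other tumors of the comparison. Xist, the RNA of the inactive X chromosome, measured 0.0519, 0.0455 and 48.8 FPKM in KO-8-hetero tumors 1 to 3 and 0.0276 to 0.0477 FPKM in WT-young tumors. The Y-linked gene Ddx3y measured 10.6, 12.5 and 0.0223 FPKM against 9.53, 10.1, 9.88 and 11.1 FPKM in WT-young tumors. Eif2s3y, also on Y, measured 41.2, 42.3 and 0.109 FPKM against 46.5, 50.997, 39.9 and 48.9. Tumor 3 was thus the only tumor of the 7 with Xist and without Y-linked transcripts, and the labels give no sex. Its nearest tumor, KO-1-hetero tumor 3, had the same pattern, with Xist at 49.9 FPKM and Ddx3y at 0.0309 FPKM. The exact permutation p-values for the 5 sex-linked genes ranged from 0.0571 to 0.429 (two-sided), and from 0.129 to 0.429 after adjustment over the 6 tests. In both KO-8-hetero normal libraries Xist measured 18.2 and 7.38 FPKM and Eif2s3y 0.128 and 0.1196 FPKM, the pattern of tumor 3 and not of tumors 1 and 2. The part of sex in the differences of tumor 3 was not tested.

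The group comparison gave 709 genes with an unadjusted p below 0.05 (5.48%), of which 265 were higher in KO-8-hetero tumors. The smallest adjusted p was 0.808 (limma). Without KO-8-hetero tumor 1, 12 genes passed (2 higher and 10 lower), and with all 24 libraries in 1 model 1 gene passed, Ly6k, with a limma adjusted p of 0.0151. Ly6k met the filter of 1 FPKM only through the 3 KO-8-hetero tumors, so it was bound to differ and its passing is no support for a group difference. The ranges did not overlap for 344 genes with KO-8-hetero above (2.66%) and for 596 with KO-8-hetero below (4.61%). The median log2 difference over all genes was -0.02. The genes named next are the 12 of smallest p in each direction among those with separate ranges. They are given as values, and each has an adjusted p of 0.808.

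Among the genes with higher values in KO-8-hetero tumors, Ly6k, a GPI-anchored surface protein of the Ly6 family, measured 1.68, 3.32 and 5.63 FPKM. It measured 0.0763, 0.1103, 0.162 and 0.305 FPKM in WT-young tumors, a log2 difference of 1.87 (SE 0.294). All 4 WT-young values were under the 1 FPKM at which a gene counts as detected here, and tumor 3 was highest. Slc7a1, a transporter of cationic amino acids, measured 8.58, 8.54 and 8.61 FPKM, nearly the same in all 3 KO-8-hetero tumors, against 5.46, 6.295, 6.01 and 5.499 FPKM. Prdm1, the repressor Blimp-1 that drives plasma cell differentiation, measured 4.18, 6.08 and 3.98 against 2.07, 2.64, 2.499 and 2.304 FPKM. It was highest in tumor 2, which had the lowest plasma cell transcripts of the 3. Ccl11, the eosinophil attractant eotaxin, measured 16.2, 38.2 and 52.8 against 14.9, 9.64, 9.33 and 7.58 FPKM, and tumor 1 lay only just above the highest WT-young tumor. Nrp2, a co-receptor for semaphorins and VEGF-C, measured 6.82, 8.83 and 10.3 against 5.51, 5.37, 4.24 and 4.11 FPKM. Lrp1, an endocytic receptor, and Tsku, a secreted leucine-rich protein, showed log2 differences of 0.65 (SE 0.156) and 0.69 (SE 0.166). The remaining genes of higher value were AI118078, Asb2, Prex1, Cox4i2 and Ms4a6c, with log2 differences from 0.37 to 1.20. Cox4i2, like Ly6k, met the filter of 1 FPKM only through the KO-8-hetero tumors, so its separate ranges are no support for a group difference.

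Among the genes with lower values, Ddc, the decarboxylase that completes the synthesis of serotonin and dopamine, measured 19.2, 23.2 and 16.1 FPKM in KO-8-hetero tumors. In WT-young tumors it measured 42.9, 40.3, 38.7 and 55.4 FPKM, a log2 difference of -1.15 (SE 0.171). The highest KO-8-hetero value was well under the lowest WT-young value. Spink1, a trypsin inhibitor secreted by gut epithelium, measured 326, 108 and 202 against 838, 582, 828.8 and 984 FPKM. Cela1, a protease of the elastase family, measured 73.1, 78.9 and 79.98 against 139, 173, 141 and 252 FPKM, with little spread among the KO-8-hetero tumors. Cyp2c68, a cytochrome P450, measured 4.65, 3.86 and 2.17 against 10.9, 25.1, 19.002 and 48.3 FPKM. Its value may share fragments with other Cyp2c genes. Atf3, a stress-induced transcription factor, measured 12.7, 7.89 and 10.6 against 16.3, 23.6, 19.9 and 23.7 FPKM, and Prr15 28.99, 16.5 and 23.7 against 38.7, 45.8, 48.98 and 42.6 FPKM. Lix1 measured 2.31, 1.37 and 0.067996 against 15.5, 7.16, 6.06 and 6.36 FPKM, lowest in tumor 3. Snhg8 and Atp6v0e2, a subunit of the proton-pumping V-ATPase, had log2 differences of -0.49 (SE 0.1002) and -0.89 (SE 0.177).

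H2-L, a class I histocompatibility gene, measured 20.3, 10.6 and 18.8 FPKM in KO-8-hetero tumors against 43.3, 40.7, 43.5 and 45.6 FPKM in WT-young tumors, a log2 difference of -1.38 (SE 0.211). Class I genes are so alike that fragments may be divided between them, and the number of class I genes differs between mouse strains, which the labels do not name. H2-D1, its close relative, measured 825, 449.96 and 724 against 786, 769, 936 and 933 FPKM, so tumors 2 and 3 lay below the WT-young range and tumor 1 within it.

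**Figure D3:**
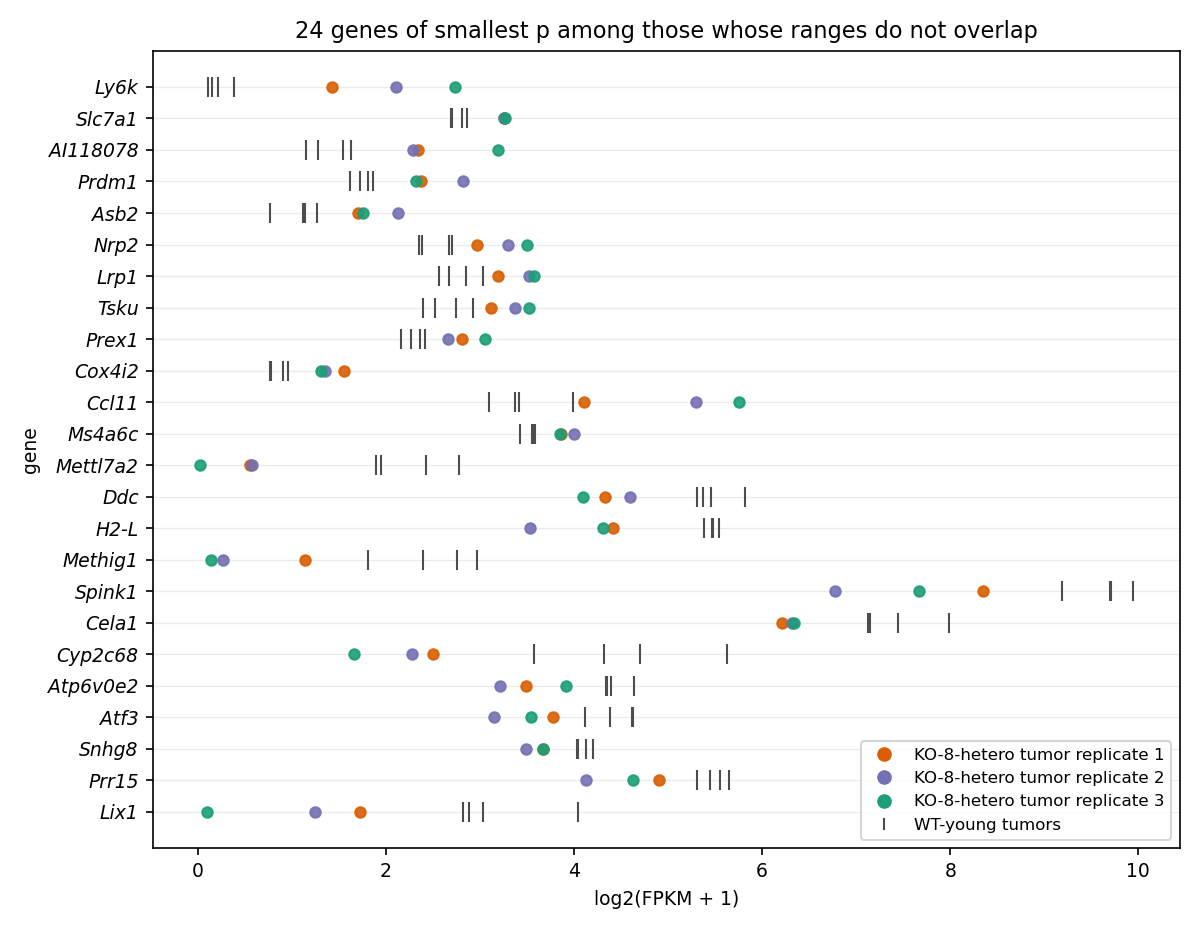
Levels, as log2(FPKM + 1), of the 24 genes of smallest p among those whose ranges do not overlap (12 higher, 12 lower), with 1 coloured point for each KO-8-hetero tumor and 1 grey tick for each WT-young tumor. The genes were chosen for separate ranges, and each has an adjusted p of 0.808. For Ly6k the KO-8-hetero tumors measure 1.68 to 5.63 FPKM and the WT-young tumors at most 0.305 FPKM.

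Mettl7a2 and Methig1 start at the same base on chromosome 15 of GRCm38, at 100353200, and extend to 100361819 and 100384435. They overlap, so fragments of 1 locus may have been divided between both, and they are not independent. Mettl7a2 measured 0.473, 0.493 and 0.0155 FPKM against 5.85, 2.85, 2.705 and 4.37 FPKM in WT-young tumors, with a log2 difference of -1.87 (SE 0.266). Mettl7a2 met the filter of 1 FPKM only through the WT-young tumors, so its separate ranges are no support for a group difference. Methig1 measured 1.196, 0.203 and 0.102 against 6.85, 5.77, 4.28 and 2.498 FPKM, with a log2 difference of -1.97 (SE 0.348). The next relative, Mettl7a3, measured 23.6, 6.52 and 0.215 against 29.6, 28.9, 27.4 and 29.95 FPKM, lowest in tumor 3. In normal colon Mettl7a2 measured 6.92 and 7.69 FPKM with the KO-8-hetero label but 0.239 and 12.8 FPKM with the WT-young label, so the 2 WT-young normal libraries were unlike. The shared start is shown because it is the reason to read both symbols as 1 locus. RefSeq gives the 250 bases before it, on the plus strand at chr15:100352950-100353199, identically for both genes, in lower case because the core searched below is not in them.

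Methig1: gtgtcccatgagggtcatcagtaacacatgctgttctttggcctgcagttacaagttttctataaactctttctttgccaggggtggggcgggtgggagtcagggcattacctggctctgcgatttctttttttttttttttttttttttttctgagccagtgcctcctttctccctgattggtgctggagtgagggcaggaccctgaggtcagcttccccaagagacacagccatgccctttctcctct

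The core TGCTGA of MAF elements (TCAGCA on the other strand) was sought in the RefSeq start regions of these 24 genes, from 250 bases before to 50 after the start. Of the 24 genes, 18 were matched, with 22 start regions. The core was found in 3 of the 22 (13.6%), those of Cela1, Ddc and Slc7a1, against 19.5% of all 32851 regions. Cela1 held it on both strands close together, shown in capitals in the 250 bases before its start on the minus strand of chromosome 15 (chr15:100687921-100688170, GRCm38). A match is a description of the letters and not a binding site.

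Cela1: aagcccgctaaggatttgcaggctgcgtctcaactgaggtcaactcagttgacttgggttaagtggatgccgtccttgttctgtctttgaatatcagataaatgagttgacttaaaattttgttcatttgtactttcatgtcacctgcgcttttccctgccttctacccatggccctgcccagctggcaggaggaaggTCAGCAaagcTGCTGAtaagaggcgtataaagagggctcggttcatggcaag

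Only Acta1, Lcn2 and Ly6k were called higher in all 3 KO-8-hetero tumors, and Ly6k met the filter of 1 FPKM only through these tumors. Lcn2, the siderophore-binding protein lipocalin 2 of neutrophils and inflamed epithelium, measured 145, 145 and 158 FPKM against 69.8, 81.6, 117 and 24.4 FPKM. The 3 KO-8-hetero values were close together, while the WT-young values spread widely, with tumor 4 lowest. The log2 difference was 1.22 (SE 0.476). Acta1, skeletal muscle actin, measured 6.55, 175 and 6.39 against 2.46, 1.41, 2.12 and 3.902 FPKM, and its group difference rests on tumor 2. The 18 genes called lower in all 3 were of mixed kinds. Among them Mettl7a2, Naaladl1 and 2310079G19Rik met the filter only through the WT-young tumors, so their calls are no support for a group difference. Slc15a1, the intestinal peptide transporter, measured 1.92, 3.48 and 6.65 against 7.78, 16.7, 12.2 and 31.9 FPKM. Aoc1, the histamine-degrading diamine oxidase, measured 20.5, 30.1 and 34.9 against 56.8, 66.3, 82.1 and 135 FPKM. Tgm3, a transglutaminase, measured 5.53, 14.5 and 3.47 against 20.6, 25.8, 50.3 and 96.4 FPKM, and the keratin Krt36 56.6, 44.9 and 7.84 against 191, 166, 262 and 237 FPKM. Edn1, the vasoconstrictor endothelin 1, measured 3.93, 4.27 and 3.77 against 6.13, 8.09, 10.05 and 24.2 FPKM. In Slc15a1, Aoc1, Tgm3 and Edn1 the highest WT-young value was that of tumor 4, the WT-young tumor that stood apart. These genes were picked for their calls, and their values support nothing beyond the description.

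Gene lists are described next by counts and medians, since no list was tested as a set. Counts of calls stand beside the shares over all genes tested. These were 0.889% higher and 2.16% lower in tumor 1, 5.3% and 3.58% in tumor 2, and 2.38% and 2.74% in tumor 3. No member of any list passed the adjusted threshold. A value for the whole tissue piece cannot tell fewer cells of a type from less RNA per cell.

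**Figure D4:**
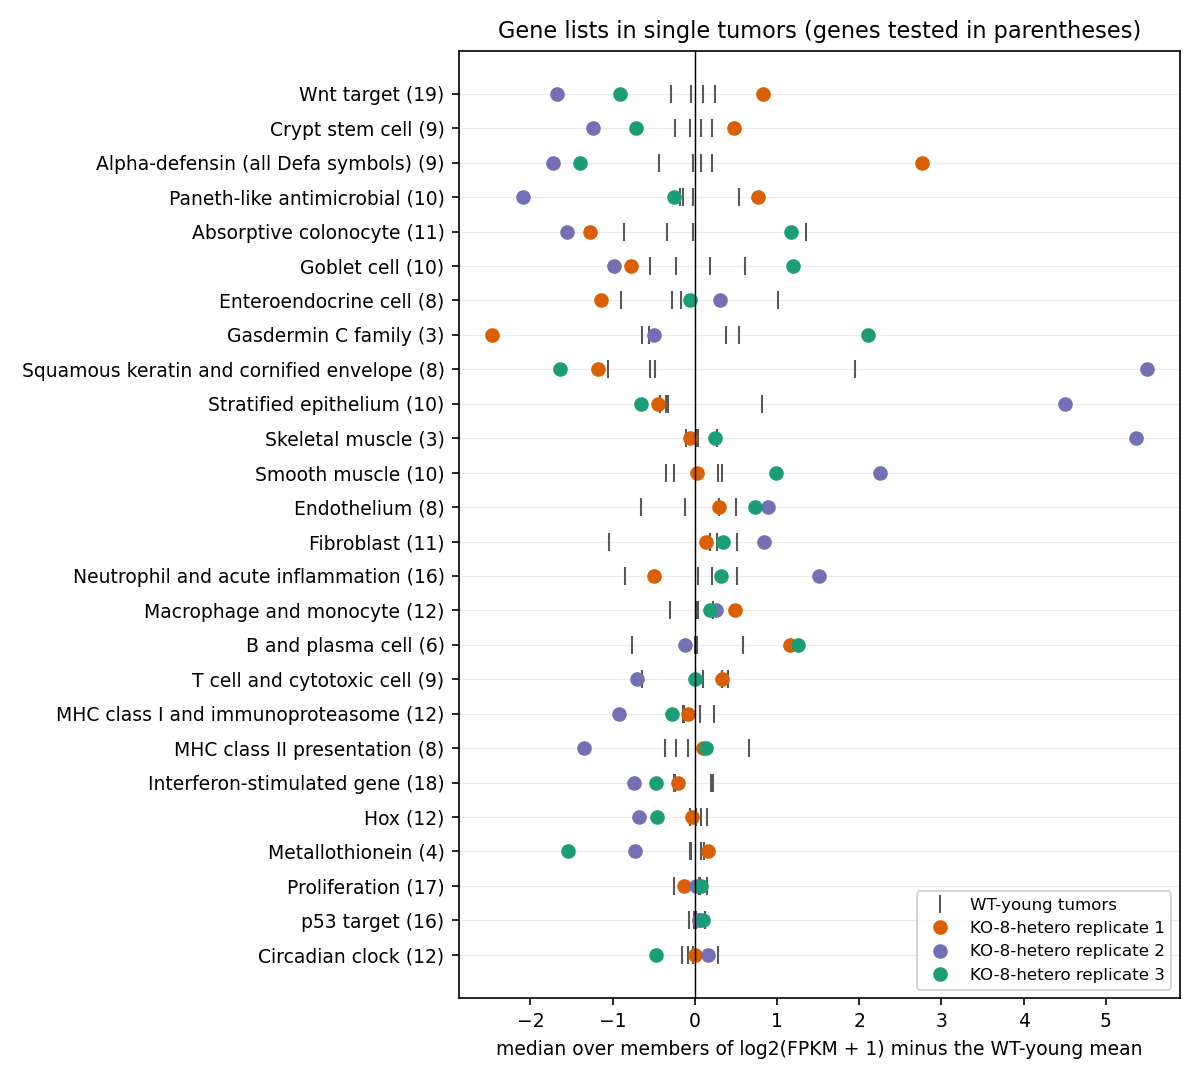
Median, over the tested members of each gene list, of the log2(FPKM + 1) difference from the WT-young mean, for the 3 KO-8-hetero tumors (coloured points) and the 4 WT-young tumors (grey ticks). The Wnt target list lies at 0.83, -1.67 and -0.91 in tumors 1 to 3, and the alpha-defensins at 2.77, -1.73 and -1.39. Proliferation lies at -0.13, 0.02 and 0.08, and p53 targets at 0.06, 0.05 and 0.10.

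Wnt target genes went in opposite directions in the KO-8-hetero tumors. Of 20 listed genes 19 were tested. In tumor 1, 4 were called higher and 0 lower, in tumor 2, 1 higher and 13 lower, and in tumor 3, 0 higher and 9 lower. The list median against the WT-young mean was 0.83, -1.67 and -0.91 in tumors 1 to 3, while the 4 WT-young tumors lay between -0.29 and 0.25. Axin2, a scaffold of the complex that degrades beta-catenin, measured 94.7, 7.62 and 14.1 FPKM in KO-8-hetero tumors and 46.8, 39.997, 44.4 and 31.9 FPKM in WT-young tumors. Tumor 1 was above and tumors 2 and 3 were below every WT-young tumor. Notum, an enzyme that inactivates Wnt proteins, measured 148, 8.23 and 24.4 against 78.4, 56.7, 62.3 and 60.3 FPKM. Nkd1, an inhibitor of Dishevelled, measured 86.4, 5.9002 and 20.5 against 52.96, 46.98, 47.9 and 31.6 FPKM, and Apcdd1, a membrane inhibitor of Wnt signalling, 133, 10.1 and 9.92 against 46.5, 62.7, 56.6 and 46.6 FPKM. All 4 feedback genes had the same order, with tumor 1 above and tumors 2 and 3 below every WT-young tumor. Rnf43, a ligase that removes Frizzled receptors, measured 68.2, 8.63 and 17.3 against 39.7, 30.1, 34.4 and 27.3 FPKM. Wif1, a secreted Wnt inhibitor, measured 180.4, 28.5 and 47.9 against 223, 156, 155 and 133 FPKM, so tumor 1 lay inside the WT-young range there. Its group difference of -1.36 (SE 0.5703) had an unadjusted p below 0.05, as did those of Lgr5, a receptor of crypt stem cells, at -0.85 (SE 0.233), and Myc at 0.46 (SE 0.193), 3 of 19 members against 5.48% of all genes. Other targets did not follow this order. Ccnd1, cyclin D1, measured 85.5, 57.3 and 99.5 against 74.5, 63.3, 60.6 and 50.8 FPKM, and Cd44, an adhesion receptor, 31.97, 90.6 and 38.5 against 40.6, 45.2, 37.6 and 23.3 FPKM. In normal colon Notum measured 0.331 and 0.473 FPKM (KO-8-hetero) and 0.2605 and 0.211 FPKM (WT-young), so tumors 2 and 3 were still well above normal tissue.

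Sp5, a transcription factor gene induced by Wnt signals, measured 15.6, 1.18 and 2.69 FPKM in the KO-8-hetero tumors and 10.6, 7.05, 10.2 and 6.24 FPKM in WT-young tumors. The TCF core CTTTGA, which on the other strand reads TCAAAG, was sought in the RefSeq start regions of the list. Of the 20 genes 13 were matched, with 19 start regions, and 2 regions (10.5%) held it, those of Sp5 and Lef1, against 16% of all 32851 regions. No match fell in the region of Axin2 or Nkd1. Sp5 is shown, with 2 matches in capitals, because its levels spread with the feedback genes and its start holds the core. The 250 bases lie on the plus strand at chr2:70474673-70474922 of GRCm38.

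Sp5: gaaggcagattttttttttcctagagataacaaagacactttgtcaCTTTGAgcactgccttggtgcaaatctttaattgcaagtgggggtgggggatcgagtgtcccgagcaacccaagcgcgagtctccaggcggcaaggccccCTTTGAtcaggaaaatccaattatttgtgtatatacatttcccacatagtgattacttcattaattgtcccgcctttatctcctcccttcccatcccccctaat

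Tumor 1 was further marked by antimicrobial genes of Paneth cells, secretory cells that the mouse colon normally lacks. Of 18 alpha-defensin symbols in the files 9 were tested, and tumor 1 had 9 of 9 called higher, tumor 2 had 7 lower and tumor 3 had 8 lower. This list, of all Defa symbols, was not among the lists set at the start. Of 10 tested genes of the Paneth-like antimicrobial list, which was, tumor 1 had 4 called higher and 0 lower. The lists overlap, since Defa24 and Defa17 are in both and are among these 4, so the counts are not independent. Defa24 measured 3343, 107 and 151 FPKM against 916, 456, 439.8 and 673 FPKM, and Defa5 479, 4.88 and 3.89 against 35.1, 42.7, 25.4 and 51.96 FPKM. Summed over the 18 symbols, tumor 1 had 4754 FPKM, tumors 2 and 3 had 129 and 178 FPKM, and the WT-young tumors had 528 to 1049 FPKM. Alpha-defensin genes are close copies, so the division between symbols is uncertain, while the sum is less affected. Lyz1, the lysozyme of Paneth cells, measured 2519, 263 and 713 against 1453, 1904, 1438 and 1641 FPKM, and Itln1, an intelectin, 397, 18.9 and 128 against 237, 173, 124 and 172 FPKM. Both were highest in tumor 1 and lowest in tumor 2. In normal colon Defa24 measured 2.398 and 3.52 FPKM (KO-8-hetero) and 2.84 and 2.54 FPKM (WT-young), so all 7 tumors exceeded normal tissue.

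In tumor 1 alone, 68 genes were called higher and lay at least 1 beyond both other KO-8-hetero tumors, and 91 were called lower in the same way. The higher ones were led by Ifitm6, an interferon-induced membrane protein of the Ifitm family, with 61.8, 7.53 and 5.12 FPKM against 2.05, 2.56, 2.95 and 3.43 FPKM. Defa21, Defa22, Defa5, Defa-ps1, Defa20 and Defa3 followed, together with Bpifb5 (31.98, 0.957 and 0.238 against 4.61, 1.88, 0.883 and 1.06 FPKM). Those lower were led by Zg16, a lectin of goblet cell granules, with 83.4, 196 and 1059 FPKM against 403, 585, 1372 and 2788 FPKM, and by Aqp8, a colonocyte water channel. Krt13, Retnlb, Pyy, Gsdmc4, Nebl and Gsdmc3 came next. Of the tumors compared, tumor 1 thus combined the highest Wnt feedback and defensin levels with low levels of several mature cell products. The mean log2 level of the Wnt target list was 5.08 there, against 4.19 to 4.70 in WT-young tumors. It was 4.93, 4.88 and 4.66 in KO-8-homo tumors and 3.94, 4.34 and 3.39 in KO-1-hetero tumors. Summed alpha-defensins measured 914, 778 and 1691 FPKM in KO-8-homo and 215, 1706 and 719 FPKM in KO-1-hetero tumors. The WT-young sums were 528 to 1049 FPKM. Levels above the WT-young range were therefore not particular to tumor 1.

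Absorptive colonocyte genes were mostly low in tumors 1 and 2, and 4 were above the WT-young range in tumor 3. Of 12 listed genes 11 were in the files and tested, with 9 called lower in tumor 1, 6 lower in tumor 2, and 4 higher in tumor 3. Aqp8 measured 1.84, 5.12 and 63.1 FPKM against 9.78, 17.2, 42.1 and 78.3 FPKM, and Slc26a3, the chloride and bicarbonate exchanger of the colon surface, 2.93, 3.19 and 87.5 against 20.1, 49.04, 35.4 and 135 FPKM. Car1, carbonic anhydrase 1, measured 181, 149.6 and 1932 against 242, 359, 592 and 738 FPKM, and only tumor 3 exceeded the WT-young range. Fabp2, the intestinal fatty acid-binding protein, measured 3.09, 10.6 and 164 against 5.85, 6.897, 8.81 and 27.2 FPKM. The WT-young tumors also spread widely on this list, with tumor 4 highest, and their list medians lay between -0.86 and 1.35. The list medians of the KO-8-hetero tumors were -1.28, -1.55 and 1.16, so tumor 3 lay below WT-young tumor 4. Aqp8 and Slc26a3 in tumor 3 were within the WT-young range.

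Goblet cell genes followed a similar order. All 10 were tested, with 3 called lower in tumor 1, 5 lower in tumor 2 and 5 higher in tumor 3. Muc2, the main mucin of the colon, measured 217, 342 and 1508 FPKM against 224, 179.7, 336 and 278 FPKM, so tumor 3 stood far above the others. Retnlb, a resistin-like protein of goblet cells, measured 3.56, 47.4 and 1125 against 229, 25.6, 41.1 and 8.95 FPKM, and Clca1, a mucus-processing protein, 86.2, 29.4 and 1657 against 655, 214, 253 and 709.6 FPKM. Both genes also varied over a wide range among the WT-young tumors. Of 8 tested enteroendocrine genes tumor 1 had 6 called lower and 1 higher. Pyy, the hormone peptide YY, measured 4.95, 62.6 and 24.9 against 22.5, 86.6, 38.3 and 79.8 FPKM, while Sct, the hormone secretin, measured 32.1, 1.49 and 5.19 against 3.15, 3.502, 5.302 and 7.31 FPKM and was high in tumor 1 only. The gasdermin C genes, which encode pore-forming proteins of gut epithelium, gave 3 of 3 tested lower in tumor 1 and 3 of 3 higher in tumor 3. Gsdmc4 measured 30.5, 148 and 907 against 303, 114, 167 and 329 FPKM. These genes are close copies of each other, and the list was chosen after its values were seen.

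Markers of colon epithelium as a whole were present in every tumor. Epcam, the epithelial adhesion molecule, measured 596, 642 and 922 FPKM against 712, 759.5, 833 and 1103 FPKM, and Krt8, a keratin of simple epithelium, 1626, 3614 and 3466 against 2456, 2642, 3100.5 and 4591 FPKM. Of 8 tested epithelial markers tumor 1 had 1 called lower, tumor 2 none and tumor 3 had 1 higher. That gene was Cdx2, an intestinal identity factor, with 5.95, 6.84 and 63.04 FPKM against 3.95, 2.95, 6.95 and 18.3 FPKM in tumors and 19.7 and 42.2 FPKM (KO-8-hetero) and 68.4 and 35.1 FPKM (WT-young) in normal colon. Tumor 3 was the only tumor of the 7 within the range of these normal libraries.

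**Figure D5:**
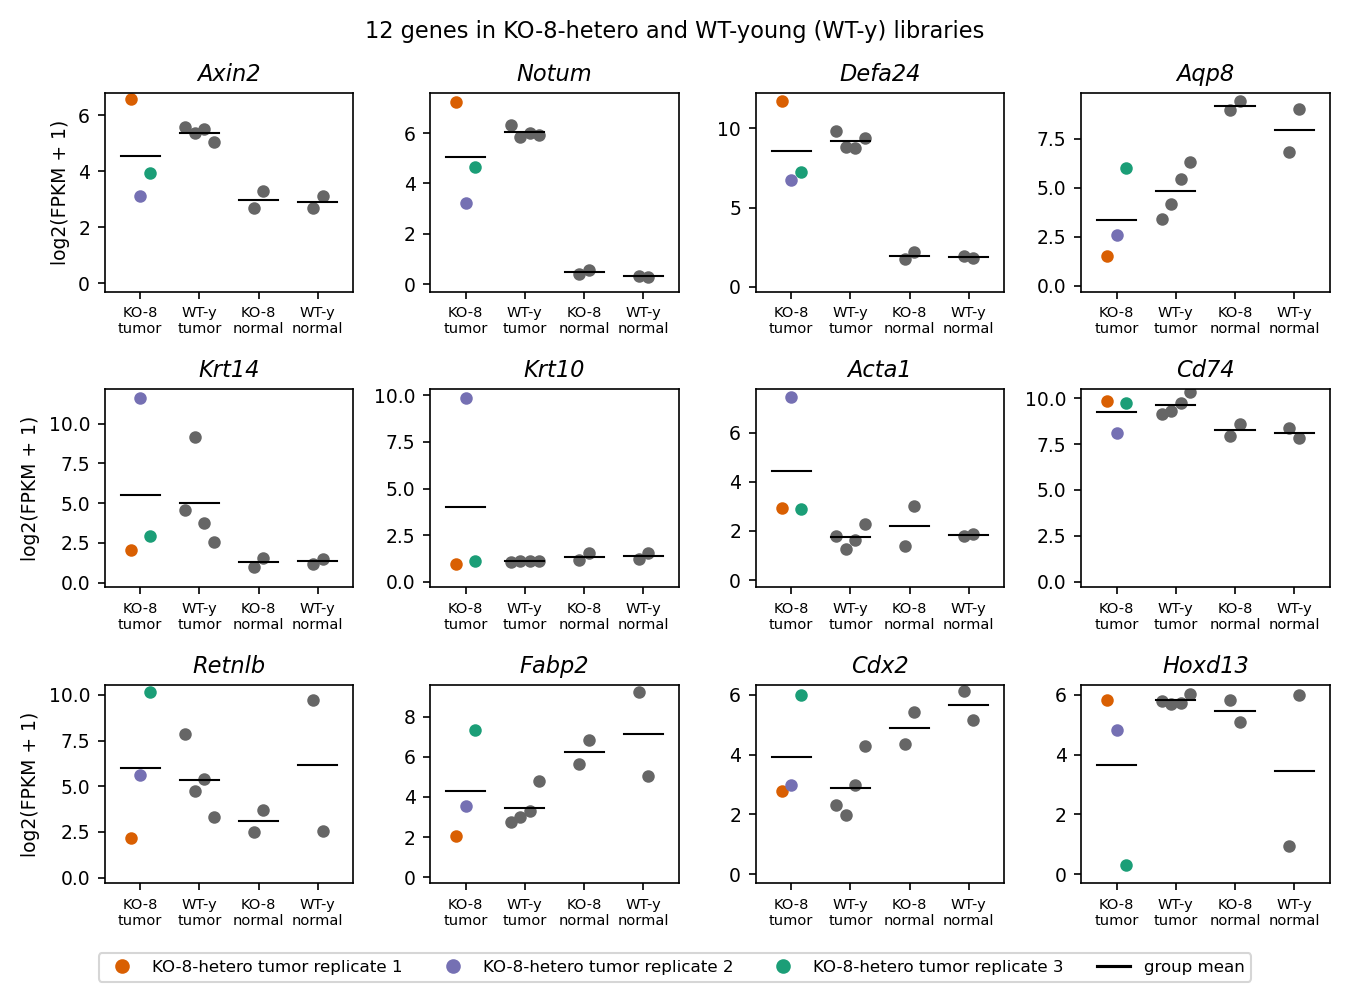
Levels, as log2(FPKM + 1), of 12 genes in tumors and normal colon labelled KO-8-hetero (KO-8) and WT-young (WT-y), with 1 point per library, a bar at the group mean, and colours for the 3 KO-8-hetero tumors. Tumor 1 is highest for Axin2, Notum and Defa24, tumor 2 for Krt14, Krt10 and Acta1, and tumor 3 for Retnlb, Fabp2 and Cdx2 among the tumors, while Hoxd13 is near 0 in tumor 3 and low in 1 WT-young normal library.

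Tumor 2 carried squamous epithelial transcripts far above the other 6 tumors, and it held 377 genes called higher and at least 1 beyond both other KO-8-hetero tumors. Krt14, a keratin of the basal layer of squamous epithelium, measured 3.06, 3173 and 6.796 FPKM against 22.6, 579, 12.3 and 4.88 FPKM. Krt13, a keratin of moist squamous linings, measured 4.22, 3230.4 and 10.99 against 47.7, 140.1, 35.1 and 29.6 FPKM. Krt6a, a keratin of activated squamous cells, measured 1.12, 1462 and 0.322 against 2.28, 190.2, 1.36 and 0.495 FPKM. WT-young tumor 2 stood above the other WT-young tumors for all 3. Krt5, the partner of Krt14, measured 0.254, 1163 and 0.432 against 0.342, 250.2, 0.242 and 0.211 FPKM, and Trp63, the transcription factor of squamous basal cells, 0.0162, 29.6 and 0.00563 against 0.0468, 4.64, 0.0166 and 0.0393 FPKM. Neither was tested, because only 2 of the 7 tumors, KO-8-hetero tumor 2 and WT-young tumor 2, reached 1 FPKM. The keratins of keratinized skin separated those 2 tumors. Krt10 measured 0.953, 936 and 1.18 FPKM against 1.05, 1.17, 1.17 and 1.17 FPKM, and Krt1 0.116, 786 and 0.153 against 0.101, 0.166, 0.0859 and 0.120 FPKM, so they were high only in KO-8-hetero tumor 2. Of 8 tested squamous genes 6 were called higher in tumor 2, while 3 were called lower in tumor 1 and 4 lower in tumor 3. The lower calls are measured from a mean that WT-young tumor 2 raises. The list median from that mean was 1.95 in WT-young tumor 2, but -0.49, -0.54 and -1.05 in WT-young tumors 1, 3 and 4. Summed over the 11 listed genes, tumor 2 had 11805 FPKM, WT-young tumor 2 had 1435 FPKM, and the other 5 tumors had 117 to 174 FPKM.

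The same tumor carried muscle transcripts. Of 12 skeletal muscle genes, a list chosen after the values were seen, 3 were tested and 3 were called higher in tumor 2. Acta1 measured 175 FPKM there, as given above. Tnnc2, fast skeletal troponin C, measured 0.0564, 163 and 0.0957 FPKM against 0, 0.0849, 0.0466 and 0.118 FPKM, and Ckm, muscle creatine kinase, 0.106, 99.4 and 0.982 against 0.129, 0.161, 0.0589 and 0.245 FPKM. Tnnt3, fast troponin T, measured 0.1496, 133 and 0.151 against 0.0278, 0.107, 0.148 and 0.288 FPKM. These 3 genes, not tested because 1 tumor alone reached 1 FPKM, were under 1 FPKM in the other 6 tumors, the WT-young tumor 2 with squamous keratins included. The summed level of the 12 genes was 909 FPKM in tumor 2 and 8.00 to 13.2 FPKM in the others. Smooth muscle genes were high there too, with 10 of 10 tested called higher. Myh11, smooth muscle myosin, measured 24.6, 137 and 37.999 against 20.1, 18.5, 10.6 and 12.3 FPKM, and Des, desmin, 3.74, 106 and 45.8 against 9.14, 10.03, 5.47 and 7.94 FPKM. Tumor 3 had 5 of the 10 called higher. The mean log2 level of the smooth muscle list was 6.05 in tumor 2. It was 5.93, 5.15 and 5.80 in KO-1-hetero tumors, 4.52, 4.72 and 5.64 in KO-8-homo tumors, and 7.18 in the WT-old tumor. High smooth muscle levels were therefore not particular to tumor 2. In normal colon Myh11 measured 381 and 62.2 FPKM (KO-8-hetero) and 479.99 and 199.7 FPKM (WT-young). The part of these tissue components in the other values of tumor 2 was not tested.

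Neutrophil and acute inflammation genes were high in tumor 2, with 14 of 16 tested called higher and 1 lower. S100a8, a calcium-binding protein of neutrophils and of squamous cells, measured 84.7, 841 and 168 FPKM against 100.4, 209, 112 and 35.7 FPKM. Il1b, the cytokine interleukin 1 beta, measured 23.6, 96.6 and 55.02 against 39.7, 63.5, 45.3 and 22.5 FPKM, and Cxcl5, a neutrophil attractant, 42.9, 145 and 52.7 against 45.6, 114, 74.7 and 47.6 FPKM. For these 3 genes WT-young tumor 2, the other tumor with squamous keratins, was the highest WT-young tumor. Il6 measured 0.5604, 9.75 and 1.63 against 1.38, 1.96, 1.36 and 0.233 FPKM, and Ppbp, a platelet chemokine, 1.48, 703 and 2.47 against 3.26, 288, 4.77 and 1.04 FPKM. The gene called lower was Nos2, inducible nitric oxide synthase, with 20.8, 6.15 and 24.8 against 9.36, 9.45, 19.6 and 18.9 FPKM. The mean log2 level of the neutrophil list was 5.26 in tumor 2. It was 5.24, 3.62 and 3.69 in KO-8-homo tumors and 3.28, 2.52 and 2.43 in KO-1-hetero tumors. The squamous keratin list stood at 8.85 in tumor 2 and at 3.31 in KO-8-homo tumor 1. The part of squamous tissue in the neutrophil values was not tested. Tumor 2 also had fat cell transcripts, with Retn, resistin, at 0, 37.6 and 0 FPKM against 0.168, 0.0537, 0 and 0.07504 FPKM and Cfd, adipsin, at 0.0393, 32.5 and 0.09895 against 0.0538, 0.0529, 0 and 0.0636 FPKM. In normal colon Retn measured 34.4 and 31.4 FPKM (KO-8-hetero) and 9.36 and 1.63 FPKM (WT-young), and Cfd measured 126 and 71.8 FPKM (KO-8-hetero) and 64.8 and 16.1 FPKM (WT-young).

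Low values in tumor 2 concerned secretory and antigen-presenting genes as well as Wnt targets. Of 10 tested genes of Paneth-like antimicrobial products 7 were called lower, among them Mmp7, the protease that activates alpha-defensins, with 693, 96.5 and 516 FPKM against 674, 529, 589.6 and 415 FPKM. Of 8 tested MHC class II genes 6 were called lower in tumor 2 and none in tumors 1 and 3. Cd74, the invariant chain, measured 929, 273 and 835 against 566, 637, 851 and 1306 FPKM. Of 12 tested MHC class I and immunoproteasome genes tumor 2 had 4 called lower, and B2m, the class I light chain, measured 2017, 981 and 1941 against 2046, 1886, 2148 and 2506 FPKM. Mcpt1, a protease of mucosal mast cells, measured 40.8, 1.795 and 96.01 against 100.4, 9.32, 39.2 and 138 FPKM. Mcpt4, a protease of connective tissue mast cells, went the other way, with 1.397, 24.03 and 8.46 against 3.65, 2.03, 2.32 and 6.5999 FPKM.

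Tumor 3 had low levels of several genes of position along the gut, as did most of the other KO tumors. Hox genes are expressed in an order along the body axis, and those with the highest numbers mark its hind end. Of 12 tested Hox genes tumor 3 had 5 called lower and 1 higher. Hoxd13 (chromosome 2, 74668225 to 74671603, GRCm38) measured 55.1, 27.04 and 0.226 FPKM against 53.8, 50.9, 52.4 and 64.6 FPKM. Its neighbours Hoxd12, Hoxd11 and Hoxd10, which occupy chromosome 2 up to 74695106, measured 0.0105, 0.0468 and 0.0445 FPKM in tumor 3. Hoxd10 and Hoxd11 overlap in the annotation, so their values are not independent. In the WT-young tumors Hoxd11 measured 7.99, 6.71, 12.3 and 13.8 FPKM and Hoxd10 8.13, 6.74, 12.2 and 12.6 FPKM, while Hoxd12 spread from 0.838 to 13.8 FPKM. Hoxb13, on chromosome 11, measured 136, 85.9 and 16.3 against 109, 138, 157 and 199 FPKM. Hoxa13 in contrast measured 4.72, 6.07 and 13.7 against 11.9, 13.3, 12.5 and 15.8 FPKM, so tumor 3 lay within the WT-young range and tumors 1 and 2 below it. Hoxa10 and Hoxa11, of more anterior groups, measured 47.5 and 7.97 FPKM in tumor 3, above the WT-young ranges of 24.3 to 27.8 and 2.01 to 3.59 FPKM. In normal colon Hoxd13 measured 56.3 and 32.9 FPKM with the KO-8-hetero label. With the WT-young label it measured 0.902 and 62.1 FPKM, so a low value also occurred in 1 wild-type library. In the other KO tumors Hoxd13 spread widely, with 7.22, 0.811 and 1.39 FPKM in KO-1-hetero and 16.6, 0.346 and 45.6 FPKM for KO-8-homo. Hoxd12 was under 1 FPKM in 5 of those 6 tumors, with 0.109, 0.0547 and 0 FPKM in KO-1-hetero and 0.01801, 0.0282 and 7.11 FPKM for KO-8-homo. The mean log2 level of the Hox list was 2.33 in tumor 3, 2.67, 2.40 and 2.40 in KO-1-hetero, and 2.55, 2.31 and 3.55 for KO-8-homo, against at least 3.39 in each WT-young tumor. Low Hoxd levels were therefore not particular to tumor 3.

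Beside these Hox genes, tumor 3 held 151 genes called higher and 75 called lower that lay at least 1 beyond both other KO-8-hetero tumors. The lower ones included Hoxd13, Atp12a, Klk15, Fxyd4, Mettl7a3, Krt36 and Mt4. Atp12a, a proton and potassium pump, measured 39.4, 22.4 and 1.72 FPKM against 56.01, 59.2, 105 and 242 FPKM. In WT-young normal colon it measured 1.58 and 212 FPKM, low in the same library as Hoxd13. Fxyd4, a regulator of ion pumps, measured 5.90, 33.6 and 0 FPKM against 29.2, 39.7, 27.4 and 31.1 FPKM, and 0 and 82.6 FPKM in the WT-young normal libraries. Mt4, a metallothionein of squamous epithelium, measured 786, 175 and 26.3 against 444, 521, 467 and 526 FPKM. The genes with higher values were led by Retnlb, Reg3b, Fabp2, Sptssb, Cyp2c65, B4galnt2, Vsig2 and Slc51b. Reg3b, an antimicrobial lectin, measured 12.7, 98.5 and 1005 against 88.7, 28.8, 136 and 7.195 FPKM, and Slc51b, a subunit of the bile acid exporter, 2.79, 5.296 and 53.3 against 2.03, 3.26, 5.72 and 12.3 FPKM. B4galnt2, a glycosyltransferase of the gut, measured 32.9, 7.999 and 180.1 against 8.104, 12.2, 17.6 and 47.4 FPKM. Several of these values recurred in KO-1-hetero tumor 3, which had Retnlb at 769 FPKM, Fabp2 at 98.9 FPKM, Muc2 at 1017 FPKM, Cdx2 at 48.2 FPKM and Axin2 at 15.4 FPKM. The mean log2 level of the goblet list was 9.28 in tumor 3 and 9.14 in that tumor, and of the Wnt target list 3.63 and 3.39. The labels do not say from which stretch of the colon a piece was taken, and the part of position in these values was not tested.

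Immune and stromal lists were mixed. Of 6 tested B and plasma cell genes, 4 were called higher in tumor 1 and the same 4 genes (Cd79a, Jchain, Mzb1 and Pou2af1) in tumor 3, while tumor 2 had none. Jchain, the joining chain of secreted antibodies, measured 445, 116 and 605 FPKM against 99.6, 229, 209 and 302 FPKM. Of 18 interferon-stimulated genes, all tested, 6 had an unadjusted p below 0.05 and 0 of these were higher, against 5.48% of all genes in both directions. Ifit1 measured 19.1, 7.62 and 13.8 against 18.9, 20.7, 36.4 and 32.97 FPKM, and Usp18, a protease that removes ISG15, 23.7, 5.43 and 10.3 against 25.4, 26.1, 26.9 and 17.2 FPKM, and the ranges overlapped for both. The 13 interferon-inducible GTPases had none called in any of the 3 tumors. Igtp, 1 of them, measured 56.8, 44.01 and 105 against 61.8, 61.6, 72.5 and 85.2 FPKM. Of 8 endothelial genes, all tested, 3 had ranges with KO-8-hetero above, against 2.66% of all genes. Kdr, the receptor of VEGF-A, measured 4.0, 5.51 and 7.26 against 3.84, 3.78, 2.51 and 1.497 FPKM. Of 12 tested macrophage genes 3 had an unadjusted p below 0.05, all higher, and Lyz2, lysozyme of myeloid cells, measured 396, 332 and 552 against 339, 259, 279 and 188 FPKM. T cell genes were low everywhere, with a summed level of 17.2 to 45.6 FPKM in KO-8-hetero and 19.6 to 49.8 FPKM in WT-young tumors.

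Proliferation genes gave no call. None of 17 tested genes was called in any KO-8-hetero tumor, and the list median over the group difference was -0.02, as over all genes. Mki67, a marker of cycling cells, measured 24.4, 27.4 and 29.5 FPKM against 33.2, 29.3, 30.4 and 27.2 FPKM. Of 16 p53 targets, all tested, 1 was called higher and 1 lower in tumor 2 and none in tumors 1 and 3. For tumor 2 this is near the shares over all genes, 5.3% higher and 3.58% lower. Perp, also a component of squamous cell junctions, was the higher with 87.4, 652 and 178 against 114, 172, 145 and 226 FPKM. Trp53inp1 was the lower with 37.6, 13.9 and 19.1 against 46.7, 40.2, 32.6 and 35.9 FPKM. The 12 circadian clock genes had none called.

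The difference between labels in tumors was compared with that in normal colon. Normal pieces of the 2 labels also differed in sex-linked transcripts. The mean log2 level of the sex-linked list was 0.0671 and 0.0596 for KO-8-hetero normal colon. For WT-young normal colon it was 3.55 and 3.61. Label and sex therefore cannot be told apart among the normal libraries, and the part of sex in this comparison was not tested. As an interaction of label with tissue over 11 libraries, 0 of 12935 genes passed (0%), with 1051 at an unadjusted p below 0.05 and a smallest adjusted p of 0.264 (limma). Ckap5, a microtubule-binding protein, and Dmtf1, a transcription factor, had the smallest p, with interaction terms of 1.63 (SE 0.273) and 1.27 (SE 0.214) and an adjusted p of 0.264. Ckap5 measured 17.8, 16.1 and 14.3 FPKM in the KO-8-hetero tumors and 17.6, 15.03, 17.2 and 19.1 FPKM in WT-young tumors. In normal colon it measured 3.55 and 2.18 FPKM (KO-8-hetero) and 12.5 and 10.7 FPKM (WT-young). The tumor ranges overlapped, while the normal ranges did not. Without KO-8-hetero normal library 1 the count was 528 (349 higher and 179 lower), and without WT-young normal library 2 it was 16, so the count of this comparison depends on single normal libraries.

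Against the 6 other KO tumors, 0 of 12935 genes passed (0%), with 981 at an unadjusted p below 0.05 and a smallest adjusted p of 0.14 (limma). No gene above is therefore called particular to KO-8-hetero among the KO labels. The smallest p belonged to Dbp, an output gene of the circadian clock, with a difference of 1.57 (SE 0.186). Dbp measured 8.37, 8.91 and 6.35 FPKM in the KO-8-hetero tumors. KO-1-hetero tumors had 1.93, 1.58 and 1.15 FPKM and KO-8-homo tumors had 1.69, 3.49 and 2.41 FPKM. The 3 KO-8-hetero values lay above all 6 others, but within the spread of WT-young tumors, at 9.67, 11.3, 5.28 and 5.31 FPKM.

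The genes with separate ranges can be set beside the other KO labels, which share the same 4 WT-young tumors as controls and are therefore not independent. For Ly6k, KO-1-hetero tumors had 1.701, 2.08 and 2.64 FPKM and KO-8-homo tumors had 0.879, 0.624 and 0.517 FPKM. For Ddc, KO-1-hetero tumors had 34.8, 41.1 and 16.9 FPKM and KO-8-homo tumors had 26.9, 28.98 and 42.4 FPKM, and 3 of the 6 lay between the KO-8-hetero and the WT-young ranges. For Lix1, KO-1-hetero tumors had 1.12, 1.31 and 0.726 FPKM and KO-8-homo tumors had 3.601, 1.51 and 3.57 FPKM. For H2-L, KO-1-hetero tumors had 22.2, 16.6 and 16.8 FPKM and KO-8-homo tumors had 16.3, 9.31 and 8.46 FPKM. In the 1 WT-old tumor H2-L measured 18.3 FPKM and Lix1 1.14 FPKM, both on the KO-8-hetero side of the 4 WT-young tumors. Ly6k measured 1.77 FPKM and Ddc 18.4 FPKM there, again among the KO-8-hetero values, and Mettl7a2 measured 1.61 FPKM, between the groups. The WT-old label has 1 tumor library, so this carries no test, and genotype and age words of the titles cannot be told apart in the comparison with WT-young.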

How the data were processed

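RNA was extracted with a miRNeasy Mini kit and libraries were made with a TruSeq Stranded mRNA kit, per the labels' protocols. The authors deposited 1 table of FPKM per library, per the file headers. TopHat2 2.1.1, Bowtie2 2.2.8, SAMtools 0.1.18, Cuffdiff 2.2.1 and the build mm10 are named in the submitters' processing notes. The annotation and the use of strand in counting are not given in the sources used here, so values of gene families and overlapping genes are uncertain. FPKM are not counts, and no count model was used. Values were analysed as log2(FPKM + 1) for 12935 genes with at least 1 FPKM in at least 3 of 7 tumors. The fit used limma 3.58.1 in R 4.3.3 (eBayes with trend, two-sided, Benjamini-Hochberg, threshold 0.05). It was also run on simulated data with independent genes and the same spread in both groups. The real groups differ in spread (median SD 0.261 and 0.166), so that run does not show how the fit performs here. The exact permutation test over 35 splits can reach 0.0286. Descriptions used Python 3.11.15. Sequences and coordinates are RefSeq GRCm38.p6, matched by symbol for 456 of 462 named genes. Sequences on mouse chromosome 18 were not used. A few genes that the rule below names are not reported here.

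Named genes were Maf, its family and sex-linked genes, the 12 of smallest p in each direction with separate ranges, up to 3 per list, up to 8 per tumor and direction that stood apart, the 10 of largest spread, and the 2 of smallest p in each other comparison. Further list members are printed as examples picked after their values were seen. The members and lists were chosen with earlier results of these data known. Libraries of the same replicate number had correlated deviations (0.252, 0.445 and 0.158 across genes), but KO-8-hetero tumor 3 correlated more with WT-young tumor 4 (0.391), and the labels state no pairing.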

Additional observations from a re-analysis of the deposited data

Results flagged for a closer look

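Among 179 values examined in the 4 WT-young tumors, 10 had 1 tumor far from the other 3, with a gap to the nearest tumor above 0.829 of the whole range. Chance flags about 1 in 20 such groups. The highest tumor stood apart for Clu (0.832 of the range), a secreted chaperone, for H2-Aa (0.838), an MHC class II chain, for Hbb-bs (1), a beta-globin, and for Lix1 (0.83). The lowest stood apart for Krt10 (0.989), a keratin of skin, whose 4 values were 1.05, 1.17, 1.17 and 1.17 FPKM, and for Mmp2 (0.847), a matrix protease. For the mean log2 level of lists, the highest tumor stood apart for the squamous keratin and cornified envelope list (0.883), the stratified epithelium list (0.919), the p53 target list (0.927) and the sex-linked list (0.97).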

How the results depend on the processing

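KO-8-hetero against WT-young tumors gave 0 genes past the threshold, and 1 (Ly6k) with all 24 libraries in 1 model. Without both tumors with high squamous keratins, an alternative chosen after seeing the data, it gave 1 (Snora28). Leaving out each library in turn gave 0 to 12, with 12 without KO-8-hetero tumor 1. The interaction with tissue gave 0, and 17 (16 higher, 1 lower) with all 24 libraries. Leaving out each library gave 0 to 528, with 3 without KO-8-hetero tumor 3 (Ddx3y, Eif2s3y and Kdm5d). Against the other KO tumors, leaving out each library gave 0 to 2, with 1 without KO-8-hetero tumor 2 (Mir3473g) and 2 without KO-8-hetero tumor 3 (Adam28 and Hao2). With the replicate number as a block, all 3 comparisons gave 0, so the block changed no call. Of 467 values of single genes under the alternatives, 465 kept their side of the threshold and 2 passed it, both for Ly6k, which met the filter only through the KO-8-hetero tumors, and of 740 list medians 14 moved by more than the spread between replicates. None of the single-gene values reversed, and list medians were not checked for a change of sign. The causes were not tested. FPKM tables hold no fragment totals, so counting error at low values is unknown.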
